A study of Homo sapiens with 16 samples.

Results

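IMR5-75 is an established human neuroblastoma cell line, and the comparison here asked what DAC did to its RNA when EPZ-6438 was present as well. The DAC+EPZ cells received DAC at 1 µM for 72 h together with EPZ-6438 at 1 µM for 96 h, and were set against cells given EPZ-6438 alone at 1 µM for 96 h (EPZ below). Each group held 2 libraries, so the comparison used 4 of the 16 libraries of the series, chosen by their labelled cell line and treatment. EPZ-6438 was thus in both groups, and DAC is the labelled difference between them. The same change was read without EPZ-6438, in 2 IMR5-75 libraries given DAC alone at 1 µM for 72 h against 2 given the solvent DMSO. It was also read in a second neuroblastoma line, Be(2)-C, with 2 DAC+EPZ libraries against 2 EPZ libraries at those doses and times. Each line is 1 genetic background. Whether the 2 libraries of a group came from different cultures is not labelled, and the p-values below therefore reflect library-to-library spread that may be technical.

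DAC is not expanded in the labels. The abbreviation is commonly used for decitabine, a cytidine analog that is built into DNA and traps DNA methyltransferases, so that methylation is lost as cells divide. DNA methylation at CG dinucleotides near gene starts keeps many germ-cell genes silent in other tissues. EPZ-6438 (tazemetostat) inhibits EZH2, the enzyme of Polycomb repressive complexes that methylates histone tails at a different set of silent genes. Neuroblastoma arises from the sympathetic nervous lineage, and its cells carry transcription factors and granule proteins of that lineage.

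The 16 libraries held between 9539557 and 14032155 counts, and the 4 compared held between 12217076 and 13304898. Of 23459 genes in the table, 15967 passed a filter on low counts and were tested. A call means a Benjamini-Hochberg adjusted p under 0.05 in edgeR's quasi-likelihood test over those genes. Levels are CPM, the counts of a gene scaled to the effective size of its library, and changes are log2 fold changes of DAC+EPZ over EPZ, with their standard error (SE) where one is given. EPZ 1 had a count for 19480 genes against 18681 in EPZ 2, while the DAC+EPZ libraries had 19265 and 19466. HAND2 and GATA3, transcription factor genes of the sympathetic lineage from which neuroblastoma arises, were present in all 4 libraries: HAND2 had 352 and 379 CPM with DAC+EPZ, against 391 and 360 CPM with EPZ, and GATA3 had 36 and 27.4 CPM with DAC+EPZ, against 31.6 and 31.6 CPM with EPZ. In bulk RNA, fewer cells of a type and less RNA per cell cannot be told apart.

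DAC added to EPZ-6438 changed 6005 genes (37.6% of those tested), of which 3307 (20.7%) rose and 2698 (16.9%) fell. The rises were the larger changes. Among called genes, 1829 rose and 362 fell more than 2-fold, and 282 rose and 14 fell more than 16-fold. These are fitted values, which depend on the prior count of the fit for the 94 higher genes with 0 counts over the EPZ group and the 14 lower genes with 0 counts over the DAC+EPZ group. The median change was 1.13 on the log2 scale among genes that rose and -0.55 among genes that fell, with 0.01 over all genes tested. Both DAC+EPZ libraries lay above both EPZ libraries in 3306 of the 3307 genes that rose, the exception being SNORA80 (adjusted p = 0.52 without DAC+EPZ 2 and 0.332 without EPZ 2), and below both in all 2698 that fell. A call nearly fixes that order, and over all genes tested both DAC+EPZ libraries lay above both EPZ libraries in 5890 (36.9%) and below both in 5279 (33.1%). Tested against a 1.5-fold change instead of no change, 1503 genes rose and 360 fell. Without EPZ 2 the call counts were 2337 genes higher and 1391 lower, and the lower calls numbered 1470 without DAC+EPZ 2 and 1707 without EPZ 1.

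**Figure D1:**
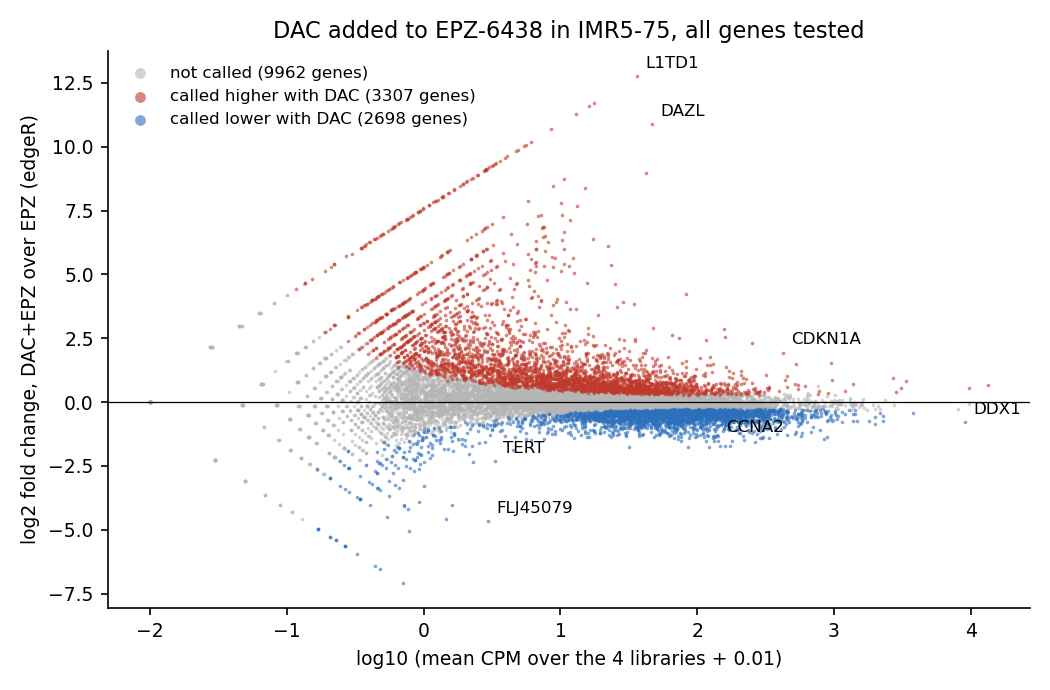
Each point is 1 of the 15967 genes tested, with the log10 mean CPM over the 4 IMR5-75 libraries (plus 0.01) across and the log2 fold change of DAC+EPZ over EPZ up. Red points were called higher (3307 genes), blue points lower (2698 genes) and grey points were not called (9962 genes). Rises extend far from 0 at low levels, while falls stay close to 0 at high levels, where DDX1 lies.

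Where a gene stood before treatment went with the direction of its change. Genes were grouped by their mean in the 2 IMR5-75 DMSO libraries, which the comparison did not use. Of 702 genes under 0.1 CPM in DMSO, 369 (52.6%) rose and 4 (0.57%) fell. Of 2430 genes over 100 CPM in DMSO, 109 (4.49%) rose and 1112 (45.8%) fell. Between these ends the share of genes that rose was 34.8% at 0.1 to 1 CPM, 29.8% at 1 to 10 CPM and 14.2% at 10 to 100 CPM, and the share that fell was 5%, 3.61% and 18.9%. A gene near 0 cannot be seen to fall at this depth. Many silent genes could also pass the filter only through libraries given DAC: of the 1093 genes that did not reach 0.823 CPM in 2 of the 8 libraries without DAC, 574 were called higher, against 2733 of the other 14874.

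**Figure D2:**
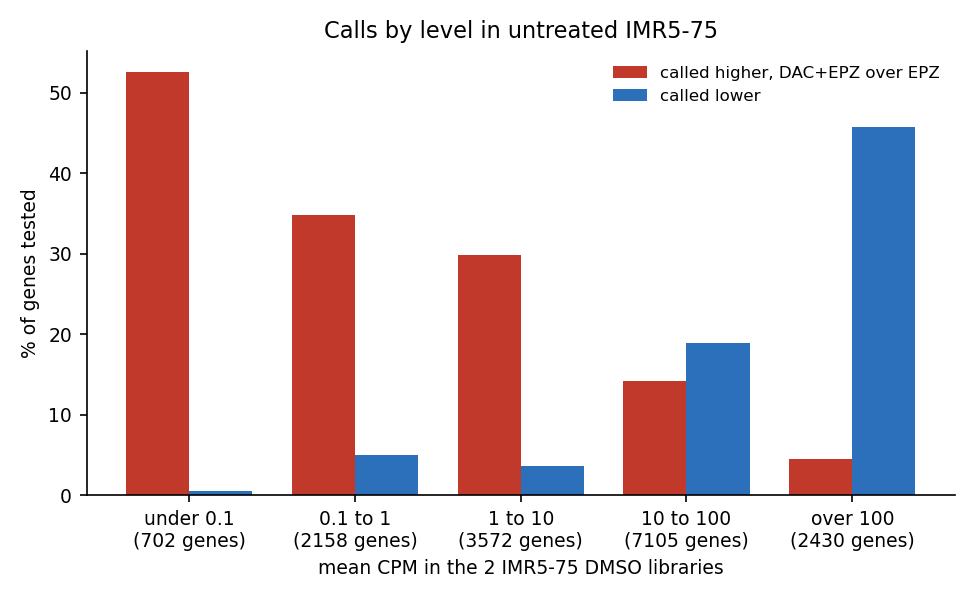
Bars give the percentage of tested genes called higher (red) or lower (blue) in DAC+EPZ over EPZ, for 5 ranges of mean CPM in the 2 IMR5-75 DMSO libraries, with the number of genes under each range. The share called higher is 52.6% in the lowest range and 4.49% in the highest, and the share called lower is 0.57% in the lowest and 45.8% in the highest.

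Among called genes with a mean of at least 2 CPM over the 4 libraries and groups apart, the 10 highest fitted changes were in genes without a count in the EPZ libraries, apart from DAZL with 1 count. L1TD1, an RNA-binding protein gene derived from a transposon and used as a marker of pluripotent and germ cells, had 72.8 and 71.7 CPM with DAC+EPZ, against 0 and 0 CPM with EPZ. It was at least 611-fold higher, taking 3 counts over the EPZ group as the floor (adjusted p = 2.12e-12). MAGEA4, a cancer-testis antigen gene on the X chromosome, had 32.7 and 37.7 CPM with DAC+EPZ, against 0 and 0 CPM with EPZ, at least 298-fold higher. DAZL, an RNA-binding protein gene needed for germ-cell development, had 101 and 86.6 CPM with DAC+EPZ, against 0.0788 and 0 CPM with EPZ. The EPZ group held 1 count, and the ratio of 2380 has a counting interval of 427 to 94020. The groups do not overlap in these genes because the rule that picked them required it. L1TD1, MAGEA4 and DAZL also stayed under 0.823 CPM in all 8 libraries without DAC, so they passed the filter only through libraries given DAC.

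The other genes of this rank were HIST1H2BA and HIST1H2AA, testis histone genes that neighbour each other, MAGEB2, MAGEB1 and MAGEC2, RFPL4B, and LOC100129520. HIST1H2BA had 28.1 and 36.3 CPM with DAC+EPZ, against 0 and 0 CPM with EPZ (at least 274-fold). HIST1H2AA had 8.07 and 13.7 CPM with DAC+EPZ, against 0 and 0 CPM with EPZ (at least 92.8-fold). For MAGEB2, MAGEB1, LOC100129520, MAGEC2 and RFPL4B the bounds ran from at least 82.3-fold for RFPL4B to at least 220-fold for MAGEB2. Leaving out an EPZ library lowers a bound to 0.499 to 0.501 of what it was. Without EPZ 1, DAZL was at least 397-fold higher, and without EPZ 2 its ratio was 1189. Intervals and floors cover counting error only, and near-identical copies such as MAGE, histone and protocadherin genes can exchange reads, so single members of these families are uncertain.

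The 120 bases before the RefSeq start (GRCh38.p14) of the highest genes are shown because CG dinucleotides are the sites of the DNA methylation that decitabine removes. They are drawn as written on the gene's own strand, 5′ to 3′, with every CG in capitals.
L1TD1, chr1:62194729-62194848, plus strand: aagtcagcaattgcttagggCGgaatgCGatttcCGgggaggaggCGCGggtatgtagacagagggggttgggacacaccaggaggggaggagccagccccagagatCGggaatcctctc
MAGEA4, chrX:151912354-151912473, plus strand: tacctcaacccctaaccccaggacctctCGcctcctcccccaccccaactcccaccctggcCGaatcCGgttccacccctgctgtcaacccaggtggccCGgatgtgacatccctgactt
HIST1H2BA, chr6:25726657-25726776, plus strand: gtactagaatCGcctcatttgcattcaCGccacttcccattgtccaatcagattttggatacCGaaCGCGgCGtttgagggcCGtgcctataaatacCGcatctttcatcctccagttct
MAGEB2, chrX:30215443-30215562, plus strand: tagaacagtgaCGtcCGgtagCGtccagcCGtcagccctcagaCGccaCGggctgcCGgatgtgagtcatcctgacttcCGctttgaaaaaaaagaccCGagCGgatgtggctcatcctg
DAZL, chr3:16605424-16605543, minus strand: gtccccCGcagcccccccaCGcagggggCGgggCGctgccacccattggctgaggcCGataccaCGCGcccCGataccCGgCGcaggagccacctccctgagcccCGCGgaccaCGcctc
MAGEB1, chrX:30243611-30243730, plus strand: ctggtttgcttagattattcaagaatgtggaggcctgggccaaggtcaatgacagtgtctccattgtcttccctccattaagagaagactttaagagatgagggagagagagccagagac

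In the 300-base RefSeq window around the start (250 bases before to 50 after), DAZL holds 33 CG, a number reached by 15.1% of all RefSeq genes with a window. MAGEB2 holds 21, L1TD1 14, HIST1H2BA 13 and MAGEA4 10 in the first window listed, and 57.4% of all genes reach 10. MAGEB1 holds 1 in the first of its 2 windows, and MAGEA4 has 5 windows, so these windows need not be the starts used in IMR5-75. Over protein-coding genes tested, 11655 of 14290 had a window (81.6%). Among those under 1 CPM in DMSO, the share that rose was 34.7% with fewer than 5 CG, 43.9% with 5 to under 10, 55.3% with 10 to under 20, 50.6% with 20 to under 30 and 41.1% with 30 or more. These low genes include some that passed the filter only through libraries given DAC. In the same order of CG counts the share was 24.5%, 18.1%, 10.7%, 10.6% and 11.9% among genes at 10 CPM or more in DMSO, and 28.9%, 34.6%, 23.9%, 18.5% and 18.3% at all levels, so the class with the highest share differed with level. No methylation was measured in these libraries, and these shares describe the windows only.

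Of 57 listed cancer-testis genes, which are expressed in testis and in tumours, 31 passed the filter and were called higher. Of these, 29 passed only through libraries given DAC and could hardly be tested without rising, so the count says nothing of the list as a whole. Only ACTL8 and PRAME, the 2 others, passed in libraries without DAC. ACTL8, an actin-like gene of testis, had 5.43 and 5.84 CPM with DAC+EPZ, against 1.97 and 2.12 CPM with EPZ. PRAME, an antigen gene also found in neuroblastoma, had 8.15 and 9.28 CPM with DAC+EPZ, against 0.552 and 0.236 CPM with EPZ, a change of 4.43 (5.19 without EPZ 1). CTCFL, the germline relative of the insulator protein CTCF, had 13.7 and 12.2 CPM with DAC+EPZ, against 0.236 and 0.315 CPM with EPZ. Of the 26 members not tested, 10 had a count in the 4 libraries, at most 22 in all.

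Of 69 listed germline and meiosis genes, 19 passed the filter without DAC libraries, and of these 9 rose and 1, TEX15, fell, against 18.4% and 18.1% of all genes that passed so. Another 29 passed only through DAC libraries, of which 26 rose. The TEX15 call was lost without DAC+EPZ 2 or EPZ 2 (adjusted p = 0.322 and 0.292). MAEL, TDRD1 and PIWIL2, genes of the piRNA pathway, which silences transposons in germ cells, were among those that rose. MAEL had 79.5 and 88.5 CPM with DAC+EPZ, against 0.236 and 0.0787 CPM with EPZ, a change of 8.97 ± 0.36 (adjusted p = 1.34e-12, and 9.92 without EPZ 1). TDRD1 had 32.0 and 28.2 CPM with DAC+EPZ, against 0.0788 and 0.0787 CPM with EPZ (ratio 382, counting interval 105 to 3157), and PIWIL2 had 23.8 and 24.6 CPM with DAC+EPZ, against 0.788 and 0.629 CPM with EPZ. MAEL and PIWIL2 stayed under 0.823 CPM in all 8 libraries without DAC, so they could hardly be tested without rising. TDRD1 passed in Be(2)-C libraries without DAC. Both DAC+EPZ libraries stood above both EPZ libraries in these 3 genes, an order that a call nearly fixes and that 36.9% of all genes tested had. SYCP3, a synaptonemal complex protein gene, had 6.68 and 5.09 CPM with DAC+EPZ, against 1.42 and 1.73 CPM with EPZ. The meiotic cohesin gene REC8 had 162 and 158 CPM with DAC+EPZ, against 49.0 and 47.8 CPM with EPZ.

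**Figure D3:**
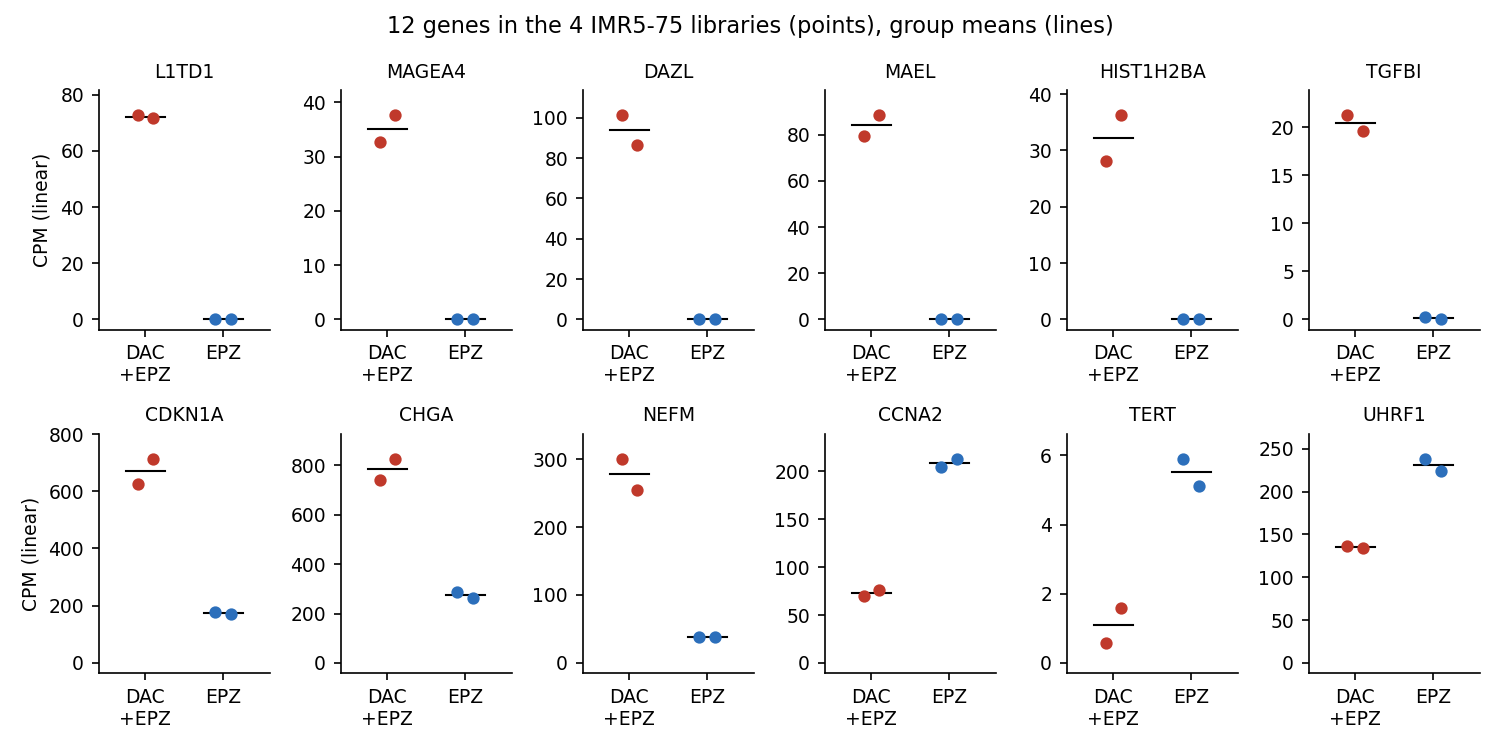
Points are single libraries, with DAC+EPZ (red) left of EPZ (blue), lines are group means, and the vertical axis is CPM on a linear scale that differs between genes. L1TD1, MAGEA4 and HIST1H2BA are at 0 CPM in both EPZ libraries. The groups do not overlap in any of the 12 genes, an order that a call nearly fixes.

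Clustered protocadherin genes, which encode neuronal cell-surface proteins in 3 gene arrays, rose together without any such filter effect, since all 52 tested passed it in libraries without DAC. Of these, 46 rose and 0 fell, with a median log2 change of 3.13 against 0.01 over all genes tested. The share that rose was 88.5%, against 18.4% of all genes that passed so. PCDHB5 had 18.7 and 21.6 CPM with DAC+EPZ, against 0.315 and 0.157 CPM with EPZ, a change of 6.36 (6.95 without EPZ 1). PCDHB2 had 15.0 and 14.6 CPM with DAC+EPZ, against 0.473 and 0.236 CPM with EPZ, a change of 5.34 (5.95 without EPZ 1). The smallest called changes were in members already present, such as PCDHB14, with 8.88 and 10.6 CPM with DAC+EPZ, against 5.91 and 5.66 CPM with EPZ. Windows of these genes held a median of 7 CG, against 25 over all tested genes with a window.

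Genes of cell division fell almost as a block. Of 47 mitosis genes, 46 fell and 0 rose, with a median log2 change of -1.11, and of 56 DNA replication genes, 54 fell and 0 rose, with a median of -0.73. CDC25B, RPA1 and TIMELESS were the members not called. The share of genes that fell was 16.9% over all genes tested, and 45.8% over those above 100 CPM in DMSO. CCNA2, the cyclin of S phase and mitotic entry, had 70.1 and 76.6 CPM with DAC+EPZ, against 205 and 214 CPM with EPZ, a change of -1.51 (adjusted p = 4.96e-09). AURKA, a spindle kinase gene, had 50.0 and 51.5 CPM with DAC+EPZ, against 125 and 126 CPM with EPZ. PBK, a mitotic kinase gene, had 38 and 39.4 CPM with DAC+EPZ, against 130 and 134 CPM with EPZ, a change of -1.77 ± 0.14. Among replication genes, PRIM1, a subunit of DNA primase, had 41.1 and 42.1 CPM with DAC+EPZ, against 98.7 and 108 CPM with EPZ. DTL, a subunit of a ubiquitin ligase that acts at replication forks, had 91.7 and 85.8 CPM with DAC+EPZ, against 180 and 192 CPM with EPZ. The DAC+EPZ libraries lay below both EPZ libraries in each of these genes, an order that a call nearly fixes and that 33.1% of all genes tested had.

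The promoter windows of the mitosis genes share short motifs of cell-cycle promoters. TTTGAA, the core of the cell cycle genes homology region, was present on either strand in 75% of the 40 mitosis genes with a window, against 14% of all tested genes with one and 18.2% of all RefSeq genes. CCAAT was present in 82.5% of them, against 42.9% and 39.7%. GGCGGGAA, an E2F-type motif, was present in 23.4% of the 47 DNA replication genes with a window, against 6.23% of all tested genes and 3.79% of all RefSeq genes. No motif is contained in another, and a match is not a bound site.

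Targets of p53 moved the other way. CDKN1A, which encodes the cyclin-dependent kinase inhibitor p21, had 624 and 714 CPM with DAC+EPZ, against 179 and 172 CPM with EPZ, a change of 1.93 ± 0.15 (adjusted p = 2.22e-09). Of 37 p53 target genes, 25 rose and 1, PMAIP1, fell, and of the 35 that passed the filter without DAC libraries 23 rose. Of the 37, 67.6% rose and 2.7% fell, against 20.7% and 16.9% of all genes tested. PMAIP1 was not called without DAC+EPZ 2, EPZ 1 or EPZ 2 (adjusted p = 0.219, 0.0695 and 0.103). BTG2, an antiproliferative gene, had 177 and 168 CPM with DAC+EPZ, against 65.2 and 60.2 CPM with EPZ. MDM2, which encodes the ligase that degrades p53, had 426 and 346 CPM with DAC+EPZ, against 248 and 283 CPM with EPZ, a call lost without DAC+EPZ 1 or EPZ 1 (adjusted p = 0.064 and 0.0588). Among CDK inhibitors and G1 cyclins, 4 rose and 10 fell of 20 (20% and 50%), so the share that rose lies near that of all genes. CDKN1C had 31.8 and 37.1 CPM with DAC+EPZ, against 10.5 and 9.05 CPM with EPZ, while CDKN2C had 25.2 and 28.9 CPM with DAC+EPZ, against 48.5 and 48.0 CPM with EPZ. E2F1, the transcription factor of the G1 to S transition, also fell, with 76.8 and 88.2 CPM with DAC+EPZ, against 159 and 140 CPM with EPZ.

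The TRAIL receptor genes TNFRSF10D and TNFRSF10A rose from levels near 0. Both stayed under 0.823 CPM in all 8 libraries without DAC, so they could hardly be tested without rising. Of 24 death receptor and caspase genes, 12 rose and 3 fell (50% and 12.5%), and of the 20 that passed the filter without DAC libraries 8 rose and 3 fell (40% and 15%, against 18.4% and 18.1% of all genes that passed so). TNFRSF10D, a decoy receptor of the ligand TRAIL, had 31.9 and 36.0 CPM with DAC+EPZ, against 0.394 and 0.393 CPM with EPZ, a change of 6.39 ± 0.35. TNFRSF10A, a signalling TRAIL receptor, had 5.43 and 5.71 CPM with DAC+EPZ, against 0.0788 and 0 CPM with EPZ (ratio 142 with a counting interval of 25.0 to 5625). Without EPZ 1 it was at least 23.6-fold higher, and without EPZ 2 the ratio was 70.7. CASP8, the caspase these receptors activate and a gene often silent in neuroblastoma, had 5.50 and 2.82 CPM with DAC+EPZ, against 1.42 and 2.36 CPM with EPZ. That rise was not called without DAC+EPZ 1 or EPZ 1 (adjusted p = 0.267 and 0.144). BCL2, an inhibitor of apoptosis, fell, with 36.1 and 30.7 CPM with DAC+EPZ, against 66.8 and 69.9 CPM with EPZ.

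Replication-dependent histone genes moved in both directions, and those that rose had low levels in the EPZ libraries. These libraries are also the base of the change. A low EPZ level favours a rise and a level near 0 cannot fall, so the levels below are a description only. Of 57 core histone genes tested, 21 rose and 32 fell, and 4 of the 21 passed the filter only through DAC libraries. Of the 57, 36.8% rose and 56.1% fell, against 20.7% and 16.9% of all genes tested. The 32 that fell averaged from 28 to 1284 CPM in the EPZ libraries, with a median of 316 CPM. One was HIST1H2BF, with 46.1 and 64.1 CPM with DAC+EPZ, against 197 and 177 CPM with EPZ. HIST1H2AB and HIST1H2BL, like it among the 10 lowest changes at a mean of at least 2 CPM with groups apart, changed by -1.76 and -1.73. The 21 that rose averaged from 0 to 10.4 CPM in the EPZ libraries, with a median of 0.394 CPM. One was HIST1H3C, with 8.95 and 13.8 CPM with DAC+EPZ, against 0.236 and 0.157 CPM with EPZ. Among linker histones, which bind between nucleosomes, there were 4 that rose and 1 that fell among 8. HIST1H1B had 33.3 and 54.2 CPM with DAC+EPZ, against 0.867 and 0.393 CPM with EPZ, a change of 6.10 (6.80 without EPZ 1), and HIST1H1D changed by 5.997. HIST1H1C, the most abundant, had 416 and 591 CPM with DAC+EPZ, against 1132 and 1035 CPM with EPZ. DAC+EPZ 2 was the higher DAC+EPZ library in each histone gene whose CPM are given here.

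Of 54 neuronal maturation genes, 38 rose and 4 fell, with a median log2 change of 0.84, and 53 of the 54 passed the filter without DAC libraries. These counts are 70.4% and 7.41%, against 20.7% and 16.9% of all genes tested. Without EPZ 2, 27 rose, and 1 fell without EPZ 2 or DAC+EPZ 2. NEFM, a neurofilament gene, had 301 and 255 CPM with DAC+EPZ, against 38.3 and 38.8 CPM with EPZ, a change of 2.85 ± 0.14 (adjusted p = 4.09e-12). PRPH (peripherin) had 250 and 298 CPM with DAC+EPZ, against 49.3 and 44.3 CPM with EPZ, and NEFH had 21.0 and 20.3 CPM with DAC+EPZ, against 1.18 and 1.5 CPM with EPZ. STMN2, a microtubule regulator of growing axons, had 4.92 and 6.74 CPM with DAC+EPZ, against 0.315 and 0.472 CPM with EPZ. NPY, a neuropeptide gene, had 3.89 and 5.50 CPM with DAC+EPZ, against 0 and 0.157 CPM with EPZ (ratio 59.9 with a counting interval of 16.3 to 500.1). Without EPZ 1 the NPY ratio was 30, and without EPZ 2 NPY was at least 20.0-fold higher. All of these stood higher in both DAC+EPZ libraries than in either EPZ library, an order that a call nearly fixes and that 36.9% of all genes tested had. SCG2, a granin of secretory vesicles, had 86.7 and 79.7 CPM with DAC+EPZ, against 9.06 and 13.4 CPM with EPZ. ELAVL4, SYT1, ELAVL2 and NCAM1, which are also neuronal, fell, by 0.69, 0.49, 0.56 and 0.42 on the log2 scale. Of these, ELAVL4 was called with any of the 4 libraries left out, SYT1 and ELAVL2 were lost without DAC+EPZ 2 or EPZ 2 (adjusted p between 0.0531 and 0.163), and NCAM1 was lost in every omission (adjusted p between 0.0688 and 0.123).

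Of 32 noradrenergic identity genes, 9 rose and 7 fell (4 without EPZ 1), that is 28.1% and 21.9% of them, against 20.7% and 16.9% over all genes tested. CHGA and CHGB, granin genes of secretory granules, rose. CHGA had 740 and 828 CPM with DAC+EPZ, against 288 and 264 CPM with EPZ, and CHGB had 131 and 121 CPM with DAC+EPZ, against 24.1 and 20.6 CPM with EPZ. DBH, the enzyme that makes noradrenaline, had 13.9 and 14.3 CPM with DAC+EPZ, against 2.68 and 1.18 CPM with EPZ, a change of 2.86 (3.60 without EPZ 1). TH, the first enzyme of that pathway, had 0 and 0.206 CPM with DAC+EPZ, against 2.60 and 0.865 CPM with EPZ, which is 3 counts against 44. Its fall was not called without EPZ 1 (adjusted p = 0.0751), and without DAC+EPZ 2 it was at least 7.87-fold lower. The regulator gene SOX11 fell by 0.77 on the log2 scale. HAND2 and GATA3 were not called, and MYCN, the amplified oncogene of many neuroblastomas, was not called either (-0.32 ± 0.14, adjusted p = 0.0842).

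Matrix and mesenchymal-state genes rose more often than they fell, with 35 and 4 of 60 tested (29 and 4 of the 54 that passed the filter without DAC libraries). Of the 60, 58.3% rose and 6.67% fell, against 20.7% and 16.9% of all genes tested. The 4 that fell were PDGFRA, ZEB1, CALD1 and YAP1, of which CALD1 and YAP1 were lost without DAC+EPZ 2, EPZ 1 or EPZ 2 (adjusted p between 0.058 and 0.451). COL3A1, a fibrillar collagen gene, had 428 and 409 CPM with DAC+EPZ, against 81.4 and 86.4 CPM with EPZ. TPM2, a tropomyosin gene, had 47.3 and 49.6 CPM with DAC+EPZ, against 3.86 and 3.38 CPM with EPZ. TGFBI, a matrix protein gene induced by TGF-beta, had 21.3 and 19.7 CPM with DAC+EPZ, against 0.236 and 0 CPM with EPZ (ratio 173 with a counting interval of 58.9 to 842). Without EPZ 1 it was at least 86.6-fold higher, and without EPZ 2 the ratio was 86.4. TGFBI stayed under 0.823 CPM in all 8 libraries without DAC, so it could hardly be tested without rising. Of 38 tested genes whose symbol starts with COL, 23 rose and 0 fell. PDGFRA, a growth factor receptor gene of mesenchymal cells, had 74.2 and 58.5 CPM with DAC+EPZ, against 152 and 159 CPM with EPZ.

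The sums of the Schwann and glial and of the haematopoietic markers were higher in both DAC+EPZ libraries than in either EPZ library, while those of the epithelial markers overlapped. The summed level of 8 Schwann and glial markers was 24.4 and 21.9 CPM with DAC+EPZ, against 9.37 and 7.39 CPM with EPZ. Of the 6 tested, 4 rose (66.7%, against 20.7% of all genes tested). Of the 5 that passed the filter without DAC libraries, 3 rose (60%, against 18.4% of all genes that passed so). ERBB3 had 7.12 and 6.19 CPM with DAC+EPZ, against 0.552 and 1.02 CPM with EPZ. SOX10, the defining factor of that lineage, was near 0, with 0.147 and 0.0687 CPM with DAC+EPZ, against 0.788 and 0.315 CPM with EPZ. GFAP, an astrocyte marker, was not called, with 0.587 and 0.275 CPM with DAC+EPZ, against 1.34 and 0.315 CPM with EPZ. The 7 haematopoietic markers summed to 9.46 and 10.5 CPM with DAC+EPZ, against 5.91 and 4.48 CPM with EPZ. Of the 3 tested, PTPRC and CD68 rose (66.7%), while HBB had 1 count over the 4 libraries. PTPRC passed the filter only through DAC libraries. The CD68 call was lost without DAC+EPZ 2 or EPZ 2 (adjusted p = 0.0953 and 0.0969). The 7 epithelial markers summed to 4.99 and 5.02 CPM with DAC+EPZ, against 5.13 and 3.23 CPM with EPZ. Among the 5 tested, EPCAM rose and KRT19 fell (20% and 20%, near the 20.7% and 16.9% of all genes tested). The part of such markers in the neuronal and matrix results was not tested.

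Interferon-stimulated genes, which respond to the type I interferon pathway, rose in 24 of 40 tested and fell in 4. These are 60% and 10%, against 20.7% and 16.9% of all genes tested. Of the 36 that passed the filter without DAC libraries, 20 rose and 4 fell. These are 55.6% and 11.1%, against 18.4% and 18.1% of all genes that passed so. HERC5, a ligase that attaches the ubiquitin-like protein ISG15, had 45.7 and 42.5 CPM with DAC+EPZ, against 13.9 and 15.3 CPM with EPZ. PARP14 had 4.77 and 5.09 CPM with DAC+EPZ, against 0.710 and 0.551 CPM with EPZ. USP18, a negative regulator of the pathway, fell, with 13.5 and 18.2 CPM with DAC+EPZ, against 34.5 and 32.5 CPM with EPZ, and 2 of the list fell without DAC+EPZ 2, EPZ 1 or EPZ 2. Of 12 nucleic acid sensing genes tested, 3 rose and 1, EIF2AK2, fell (0 fell without DAC+EPZ 2, EPZ 1 or EPZ 2). The share that rose, 25%, lies near the 20.7% of all genes tested, and 8.33% fell. DDX58, which encodes the sensor RIG-I, changed by 0.94. Of 17 antigen presentation genes, 7 (41.2%) rose and 0 fell (4 rose without EPZ 2). HLA-E had 1.17 and 0.962 CPM with DAC+EPZ, against 0.0788 and 0.157 CPM with EPZ (ratio 9.01, counting interval 2.80 to 46.2). The reads of HLA genes can be shared between near-identical copies.

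Imprinted genes, in which 1 parental copy is silenced by methylation, rose in 20 of 40 tested and fell in 3 (2 without EPZ 1 or EPZ 2, and 1 without DAC+EPZ 2), and of the 36 that passed the filter without DAC libraries 17 rose. Of the 40, 50% rose and 7.5% fell, against 20.7% and 16.9% of all genes tested. MEST had 198 and 191 CPM with DAC+EPZ, against 36.8 and 35.7 CPM with EPZ, a change of 2.42. H19, a long RNA expressed from the maternal copy, had 57.5 and 61.7 CPM with DAC+EPZ, against 11.6 and 10.2 CPM with EPZ, a change of 2.45. NNAT had the highest level of the list, with 1300 and 1527 CPM with DAC+EPZ, against 499.5 and 471.5 CPM with EPZ. IGF2, the growth factor gene beside H19, had 0 and 0 CPM with DAC+EPZ, against 0.946 and 0.787 CPM with EPZ, at least 8.14-fold lower (at least 3.94-fold without DAC+EPZ 2 and 4.20-fold without DAC+EPZ 1). The other imprinted genes that fell were RB1 and UBE3A.

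Sets of genes tied to Polycomb or to methylation in neuroblastoma gave mixed counts. Of 57 developmental regulators known to be bound by Polycomb, 18 rose and 4 (ALX4, GATA6, SOX2 and GATA4) fell (8 rose without EPZ 2, and 2 and 1 fell without DAC+EPZ 1 and EPZ 1), and of the 50 that passed the filter without DAC libraries 16 rose. MSX1 had 45.5 and 56.4 CPM with DAC+EPZ, against 13.7 and 11.9 CPM with EPZ. Of 19 HOX cluster genes, 7 rose and 1, HOXC10, fell (4 rose without EPZ 2, and 0 fell without DAC+EPZ 2 or EPZ 1; 2 of the 7 passed the filter only through DAC libraries), with HOXD11 at 15.3 and 16.2 CPM with DAC+EPZ, against 4.18 and 6.14 CPM with EPZ, and HOXD10 at 13.9 and 8.73 CPM with DAC+EPZ, against 4.49 and 3.93 CPM with EPZ. Of 13 suppressor genes described as repressed by EZH2 in neuroblastoma, 9 rose and 0 fell, with EPZ-6438 present in both groups. CLU had 60.7 and 71.8 CPM with DAC+EPZ, against 18.2 and 16.4 CPM with EPZ, and NGFR, a neurotrophin receptor gene, had 20.1 and 20.1 CPM with DAC+EPZ, against 3.23 and 2.52 CPM with EPZ. Of 28 genes described as methylated in neuroblastoma, 13 rose and 3 (KRT19, APITD1 and MGMT) fell (1 without EPZ 1), and of the 22 that passed the filter without DAC libraries 8 rose and 3 fell. In the order given, 31.6%, 36.8%, 69.2% and 46.4% of these 4 lists rose, against 20.7% of all genes tested. The shares that fell were 7.02%, 5.26%, 0% and 10.7%, against 16.9%.

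DNMT1, which copies methylation after replication, had 203 and 187 CPM with DAC+EPZ, against 256 and 266 CPM with EPZ, a change of -0.42 ± 0.13 (adjusted p = 0.0114). That call was lost without DAC+EPZ 2, EPZ 1 or EPZ 2 (adjusted p = 0.143, 0.0637 and 0.123). UHRF1, which brings DNMT1 to new DNA, had 136 and 134 CPM with DAC+EPZ, against 238 and 224 CPM with EPZ. DNMT3A (0.10 ± 0.10) and DNMT3B (-0.12 ± 0.14) were not called. EZH2 changed by -0.40 ± 0.10 (adjusted p = 0.00395) and EZH1 was not called (0.09 ± 0.12). Of 28 DNA methylation genes, 3 rose and 9 fell (5 fell without EPZ 2), and of 37 Polycomb machinery genes, 3 rose and 10 fell (1 and 0 rose without EPZ 1 and EPZ 2, and 5, 6 and 6 fell without DAC+EPZ 2, EPZ 1 and EPZ 2). The shares were 10.7% and 32.1%, and 8.11% and 27%, against 20.7% and 16.9% of all genes tested. GADD45A rose by 1.13 on the log2 scale, and the Polycomb accessory genes PHF19 and PCGF6 fell by 0.997 and 0.78 on the log2 scale. TERT, the catalytic subunit of telomerase, fell, with 0.587 and 1.58 CPM with DAC+EPZ, against 5.91 and 5.11 CPM with EPZ, a change of -2.32 ± 0.40 (-3.17 without DAC+EPZ 2).

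Of 40 ribosome biogenesis genes, 24 fell and 0 rose, with LYAR at 30.8 and 30.1 CPM with DAC+EPZ, against 58.1 and 56.0 CPM with EPZ, and DDX10 changed by -0.85. Of 27 glycolysis genes, 12 fell and 2 rose (6 fell without EPZ 1, and 7 without EPZ 2, and 1 rose without DAC+EPZ 2 or EPZ 2). LDHA had 383 and 373 CPM with DAC+EPZ, against 734 and 707 CPM with EPZ, while ENO2, the neuronal enolase, rose by 1.16. Of 26 cholesterol synthesis genes, 11 fell and 3 rose (6 fell without DAC+EPZ 1, EPZ 1 or EPZ 2, and 7 without DAC+EPZ 2). TM7SF2 changed by 1.39. Of 35 immediate early genes and feedback inhibitors of growth factor signalling, 19 (54.3%) rose and 0 fell. The shares that fell were 60% for ribosome biogenesis, 44.4% for glycolysis and 42.3% for cholesterol synthesis genes. Among genes over 100 CPM in DMSO 45.8% fell, and no list here was matched to other genes by level. Over all genes tested, 20.7% rose and 16.9% fell. ETV5 had 40.4 and 39.2 CPM with DAC+EPZ, against 13.1 and 12.5 CPM with EPZ, and DUSP6 had 23.9 and 26.6 CPM with DAC+EPZ, against 6.86 and 6.37 CPM with EPZ.

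Of 41 genes of the ATF4 and unfolded protein responses, 10 rose and 9 fell (6 rose without EPZ 2, and 4, 5 and 5 fell without DAC+EPZ 2, EPZ 1 and EPZ 2). These shares, 24.4% and 22%, lie near the 20.7% and 16.9% of all genes tested. GDF15, a secreted stress cytokine, had 11.4 and 14.5 CPM with DAC+EPZ, against 0.394 and 0.236 CPM with EPZ, while MTHFD2, a mitochondrial folate enzyme, had 230 and 234 CPM with DAC+EPZ, against 438 and 460 CPM with EPZ. Of 27 NRF2 targets, 10 rose and 6 fell (3 fell without DAC+EPZ 1, and 2 without DAC+EPZ 2, EPZ 1 or EPZ 2). The aldo-keto reductase gene AKR1C3 had 17.3 and 18.2 CPM with DAC+EPZ, against 2.52 and 2.91 CPM with EPZ, and AKR1C1 had 2.13 and 2.13 CPM with DAC+EPZ, against 0.158 and 0.0787 CPM with EPZ (ratio 18.0, counting interval 5.88 to 89.9).

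**Figure D4:**
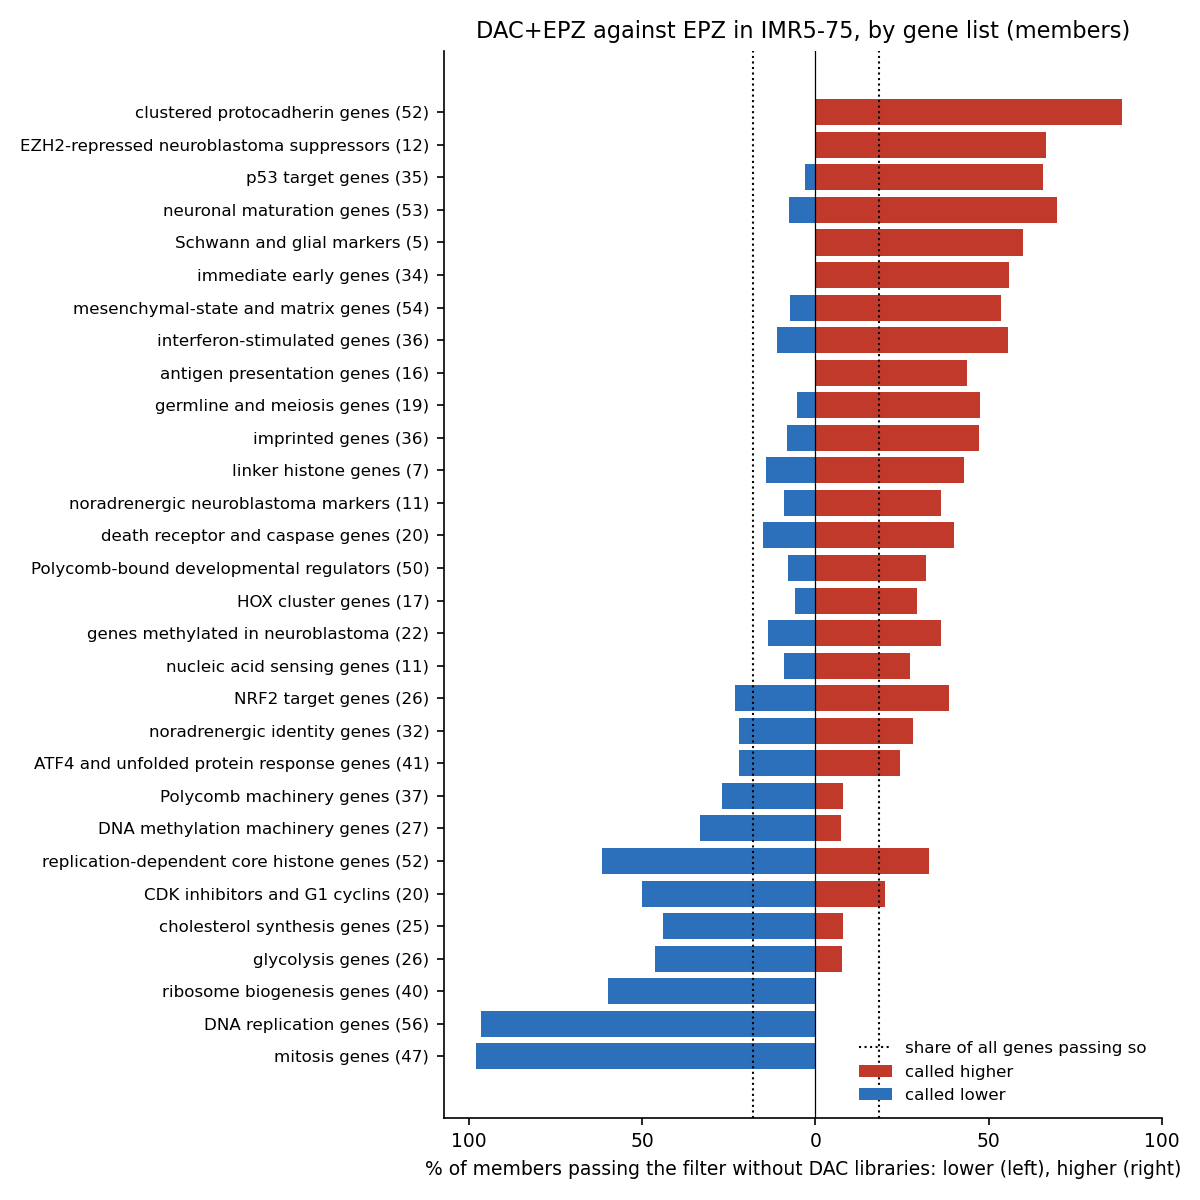
Bars give, for the 30 gene lists with at least 5 members that passed the filter in libraries without DAC, the percentage of those members called higher (red, right of 0) and lower (blue, left of 0) in DAC+EPZ over EPZ, with their number in brackets. Dotted lines mark the shares over all 14874 genes that passed so, 18.4% higher and 18.1% lower. Clustered protocadherin genes lie at the top with 88.5% higher, and mitosis genes at the bottom with 97.9% lower.

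By amount of RNA, the 5 largest rises were in RPPH1, RMRP, MALAT1, FAM84A and ACTG1. RPPH1, the RNA of ribonuclease P, had 12920 and 19760 CPM with DAC+EPZ, against 11310 and 9507 CPM with EPZ, and RMRP had 8748 and 14250 CPM with DAC+EPZ, against 8445 and 7466 CPM with EPZ. Both calls were lost without DAC+EPZ 2 (adjusted p = 0.234 for RPPH1 and 0.508 for RMRP), and without EPZ 2 (adjusted p = 0.111 for RPPH1 and 0.145 for RMRP). MALAT1 had 5101 and 3464 CPM with DAC+EPZ, against 2433 and 2393 CPM with EPZ, FAM84A rose by 0.93, and ACTG1 rose by 0.56 (adjusted p = 0.0654 without EPZ 2). The 5 largest falls were in DDX1, HSPA8, NPM1, GAPDH and TUBA1B. DDX1, a helicase gene next to MYCN that is often amplified with it, had 7039 and 6316 CPM with DAC+EPZ, against 11570 and 11430 CPM with EPZ. HSPA8, NPM1 and TUBA1B fell by 0.75, 0.85 and 0.72 on the log2 scale. GAPDH, often used as a reference gene, fell by 0.42, a call lost without DAC+EPZ 1, EPZ 1 or EPZ 2 (adjusted p = 0.277, 0.123 and 0.0888).

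Several of the lowest changes rested on EPZ 1. Of 177 genes that fell and averaged under 5 CPM in the EPZ libraries, 144 (81.4%) were higher in EPZ 1 than in EPZ 2, against 64.8% of all 4970 genes tested at that level. Most of the 177 were not called lower without EPZ 1, while most still were without EPZ 2. These omissions were run apart from those behind the totals of lower calls given earlier, and cannot be combined with them. FLJ45079, the lowest change at a mean of at least 2 CPM with groups apart, had 0.220 and 0.206 CPM with DAC+EPZ, against 7.96 and 3.30 CPM with EPZ, a change of -4.66 (-3.85 without EPZ 1). The same gene had 3.02 CPM in DMSO 1 and 0.0841 CPM in DMSO 2. LOC730668 changed by -2.34. CCDC33 (-2.05) and LOC100289341 (-1.74) were not called without EPZ 1 (adjusted p = 0.0809 and 0.170). LDB2, a cofactor of LIM-domain transcription factors, had 1.91 and 1.92 CPM with DAC+EPZ, against 7.17 and 6.84 CPM with EPZ, so that its EPZ libraries lay close together. Of the 2521 genes that fell from 5 CPM or more, more were called lower without EPZ 1 than without EPZ 2, in the same separate run.

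The change that DAC made in EPZ-treated cells was then set against the change it made in cells without EPZ-6438. The 2 comparisons share no library. DAC over DMSO called 5374 genes (33.7%), 3178 higher (19.9%) and 2196 lower (13.8%). Of the genes that rose with DAC+EPZ, 2438 also rose with DAC over DMSO, which is 73.7% and 76.7% of the 2 lists, and 1578 genes fell in both, 58.5% and 71.9%. Opposite calls were made for 3 genes: SLFNL1 was called higher with DAC+EPZ and lower with DAC, and SESTD1 and LOC100294145 the other way. On EPZ-6438, the SLFNL1 call was lost without DAC+EPZ 1, EPZ 1 or EPZ 2 (adjusted p = 0.182, 0.0923 and 0.148), that of SESTD1 without DAC+EPZ 1, DAC+EPZ 2 or EPZ 1 (adjusted p = 0.0934, 0.187 and 0.352), and that of LOC100294145 without DAC+EPZ 2 or EPZ 1 (adjusted p = 0.123 and 0.052). Over all 15967 genes the changes had a Pearson correlation of 0.847 and a Spearman correlation of 0.770, as a description across genes, which are not replicates. A test of the difference between the 2 changes called 4 genes (0.0251%), 2 with the higher change in EPZ-treated cells (0.0125%) and 2 with the lower (0.0125%), with 1107 at an unadjusted p under 0.05 and 14 called by DESeq2. It called 84 genes without the filter on low counts (47 higher and 37 lower) and 1 in the 8 IMR5-75 libraries alone (0 higher and 1 lower). With 1 of the 8 libraries left out it called from 1 to 10 genes. Few calls need not mean few differences. On simulated counts of genes that were not silent, the test recovered 7.46% of 1.5-fold, 59.7% of 2-fold and 97% of 4-fold differences. For genes at 0 in both the EPZ and DMSO groups, such as MAGEA4, the fitted difference has no usable SE and the test says little. Among the 1279 called genes over 2-fold and 2 CPM, picked by their change on EPZ-6438, the difference had a median of -0.09 and quartiles of -0.46 and 0.28. This pools both directions. The median change with and without EPZ-6438 was 1.62 and 1.76 in the 1059 that rose, and -1.19 and -0.85 in the 220 that fell.

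FOS, a transcription factor gene induced within minutes by growth signals, had the largest difference of the 4. It had 12.5 and 18.1 CPM with DAC+EPZ, against 22 and 26.4 CPM with EPZ, and 28.5 and 45.4 CPM with DAC, against 2.36 and 4.63 CPM with DMSO. DAC thus changed it by -0.66 with EPZ-6438, which was not called, and by 3.42 without it, a difference of -4.08 ± 0.44 (adjusted p = 0.000137). ADCYAP1, which encodes the neuropeptide PACAP, had 30.4 and 33.5 CPM with DAC+EPZ, against 9.38 and 7.79 CPM with EPZ, and 17.2 and 15.8 CPM with DAC, against 1.47 and 1.35 CPM with DMSO. It rose in both settings, by 1.89 with EPZ-6438 and by 3.53 without it (difference -1.64 ± 0.26, adjusted p = 0.0138). The order was the reverse in NEFM and RGS4. NEFM changed by 2.85 with EPZ-6438 and by 1.56 without it (difference 1.29 ± 0.19, adjusted p = 0.0071), with 129 and 132 CPM with DAC, against 49.0 and 39.3 CPM with DMSO. RGS4, a regulator of G-protein signalling, had 157 and 160 CPM with DAC+EPZ, against 9.30 and 7.47 CPM with EPZ, and 83.5 and 97.3 CPM with DAC, against 10.5 and 17.9 CPM with DMSO (difference 1.56 ± 0.25, adjusted p = 0.0167). FOS was called with any library left out, while RGS4 and NEFM were not called without EPZ 1 (adjusted p = 0.0675 for both) or EPZ 2 (adjusted p = 0.229 and 0.0555). RGS4 was also lost without DAC 1 (adjusted p = 0.0632) or DMSO 2 (adjusted p = 0.351). ADCYAP1 was lost without DAC+EPZ 1, EPZ 1, DAC 1, DMSO 1 or DMSO 2 (adjusted p between 0.0599 and 0.258).

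**Figure D5:**
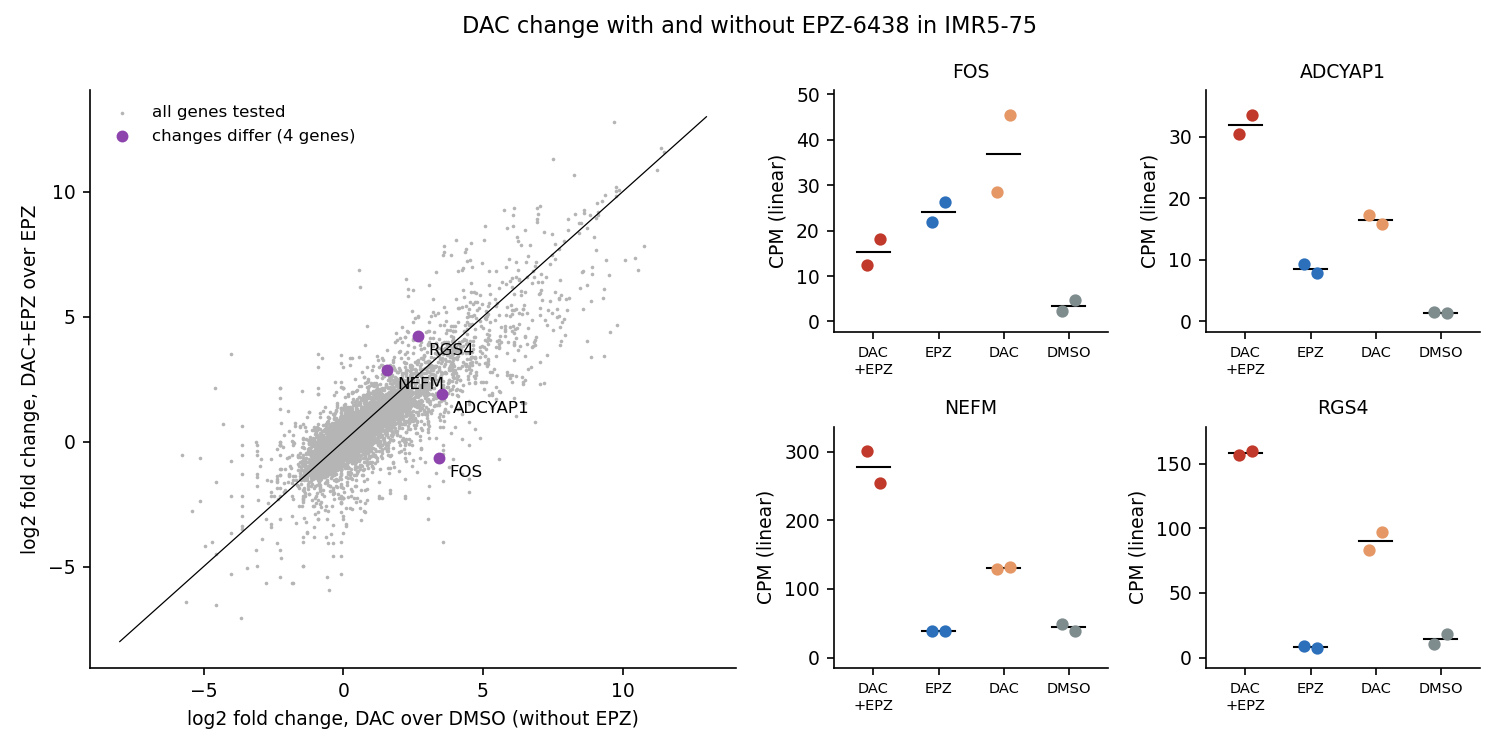
Left, each point is 1 of 15967 genes, with the log2 change of DAC over DMSO across and of DAC+EPZ over EPZ up, the line marks equal changes, and purple points are the 4 genes whose changes differed. Right, CPM (linear axes) in the 8 IMR5-75 libraries, with group means as lines. FOS is highest with DAC alone at 28.5 and 45.4 CPM, and NEFM and RGS4 are highest with DAC+EPZ.

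In Be(2)-C the same addition of DAC to EPZ-6438 called 672 genes (4.21%), 454 higher (2.84%) and 218 lower (1.37%). Of these, 316 rose in both lines, which is 9.56% of the IMR5-75 list and 69.6% of the Be(2)-C list, and 96 fell in both, 3.56% and 44.0%. Opposite calls were made for 38 genes, and over all genes the 2 changes had a Pearson correlation of 0.388 and a Spearman correlation of 0.361, as a description. A test of the difference called 1662 genes (10.4%), 944 with the higher change in IMR5-75 (5.91%) and 718 with the lower (4.5%). It called 1105 genes without DAC+EPZ 2 and 879 without EPZ 2 of IMR5-75, and 883 without DAC+EPZ 1 of Be(2)-C. This test says little for genes at 0 in both Be(2)-C groups, such as L1TD1, whose fitted difference has no usable SE. By list, the difference was called in 40 of 47 mitosis genes and 20 of 56 DNA replication genes, all with the lower change in IMR5-75. It was called with the higher change in IMR5-75 in 38 of 52 protocadherin, 20 of 54 neuronal maturation, 18 of 37 p53 target and 18 of 41 ATF4 and unfolded protein response genes, and in 0 members of these 4 lists with the lower. In the ATF4 and unfolded protein response list, 0 genes rose and 20 fell in Be(2)-C, with a median log2 change of -0.56, against 10 and 9 in IMR5-75, with a median of 0.15. CCNA2 fell in IMR5-75 as above, and of the mitosis genes 1 (BIRC5) was called lower in Be(2)-C, against 46 in IMR5-75. The EPZ level these changes start from differed between the lines, and its part in the line differences was not tested. PCDHB2 had 23.9 and 21.5 CPM with EPZ in Be(2)-C, against 0.473 and 0.236 CPM with EPZ in IMR5-75. SCG2 had 698 and 808 CPM with EPZ in Be(2)-C, against 9.06 and 13.4 CPM in IMR5-75. ELAVL2 went the other way, with 21.6 and 28.8 CPM with EPZ in Be(2)-C, against 126.5 and 144.4 CPM in IMR5-75. CCNA2 had 142 and 165 CPM with EPZ in Be(2)-C, against 297 and 311 CPM with DMSO. In IMR5-75 it had 205 and 214 CPM with EPZ, against 220 and 219 CPM with DMSO. AURKA had 82.35 and 88.47 CPM with EPZ in Be(2)-C, against 143 and 135 CPM with DMSO. The change from DMSO to EPZ was not tested in Be(2)-C. CDKN1A had 11.2 and 10.3 CPM with DAC+EPZ in Be(2)-C, against 11.3 and 7.77 CPM with EPZ, and the changes of the 2 lines differed by 1.76 ± 0.25 (adjusted p = 5.05e-05).

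GDF15 rose in IMR5-75 as given above and fell in Be(2)-C, where it had 0.267 and 0.419 CPM with DAC+EPZ, against 17.7 and 12.1 CPM with EPZ (difference 10.74 ± 0.76, adjusted p = 5.28e-09). RFPL4B was at least 82.3-fold higher in IMR5-75 and had 3.56 and 2.52 CPM with DAC+EPZ in Be(2)-C, against 1.82 and 2.78 CPM with EPZ. TDRD1 had 147 and 142 CPM with DAC+EPZ in Be(2)-C, against 143 and 189 CPM with EPZ, so that it was already present without DAC in Be(2)-C. VTRNA1-3, a vault RNA, had 1.91 and 1.79 CPM with DAC+EPZ in IMR5-75, against 0 and 0 CPM with EPZ, and 33.6 and 28.7 CPM with DAC+EPZ in Be(2)-C, against 49.8 and 54.7 CPM with EPZ. KRT19, a keratin gene of epithelia, had 0 and 0 CPM with DAC+EPZ in IMR5-75, against 2.05 and 0.708 CPM with EPZ (at least 12.9-fold lower, and at least 6.65-fold without EPZ 1, 6.68-fold without DAC+EPZ 1 and 6.26-fold without DAC+EPZ 2). It had 16.3 and 19.2 CPM with DAC+EPZ in Be(2)-C, against 3.72 and 3.42 CPM with EPZ. LDHA and PDGFRA, which fell in IMR5-75, rose in Be(2)-C, by 1.00 and 3.20 on the log2 scale, and the changes of the lines differed by -1.93 (adjusted p = 2.08e-08) and -4.43 (adjusted p = 6.61e-11).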

How the data were processed

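RNA of 16 libraries of IMR5-75 and Be(2)-C cells was sequenced, 2 for each of 4 treatments per line. The authors deposited raw counts per gene, and per the submitters' processing notes TopHat2 2.0.5, HTSeq 0.5.3p9, DESeq2 and the build hg19 were used; neither the gene annotation nor the strand setting is given in the sources at hand, so reads of antisense and overlapping genes cannot be told apart. Groups were taken from the labels. Genes passed a filter of 10 counts in a library of median size (0.823 CPM) in at least 2 libraries. The filtered counts were scaled by TMM and fitted in 1 model of 8 groups with edgeR 4.0.16 in R 4.3.3 (quasi-likelihood, 8 residual degrees of freedom), whose adjusted p-values are Benjamini-Hochberg values over all 15967 genes tested. CPM were computed on TMM-scaled library sizes. Over 1 library, 3 counts correspond to 0.206 to 0.315 CPM. Fold bounds take 3 counts over a group at 0 as the floor, ratios of 1 to 3 counts have exact 95% binomial intervals, and list medians hold such genes at their bound. Medians of promoter CG counts used RefSeq windows of GRCh38.p14, matched by symbol, and 10 older symbols of the lists were matched through RefSeq synonyms. Replicate pairs differed more than counting noise (chi-square per degree of freedom 2.78 to 13.9), so no library was counted as a repeat of another.

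Genes were named by a rule. It took the 10 highest and 10 lowest called changes over 2 CPM with groups apart, the 2 called members of each list with the smallest p, and the 5 largest rises and 5 largest falls in mean CPM. It added DNMT1, DNMT3A, DNMT3B, UHRF1, EZH1, EZH2, MYCN and CDKN1A, and the 4 highest and 4 lowest called differences between comparisons. Some genes that the rule takes are not reported here. Other genes named were chosen after their values were seen: ACTL8, PRAME, CTCFL, TEX15, MAEL, PIWIL2, SYCP3, REC8, PCDHB14, PMAIP1, MDM2, CDKN1C, E2F1, CASP8, BCL2, HIST1H1C, NEFH, STMN2, NPY, ELAVL4, SYT1, ELAVL2, NCAM1, DBH, TH, SOX11, HAND2, GATA3, PDGFRA, ZEB1, CALD1, YAP1, COL3A1, USP18, NNAT, IGF2, RB1, UBE3A, DUSP6, SNORA80, CDC25B, RPA1, TIMELESS, SLFNL1, SESTD1, LOC100294145, BIRC5, EIF2AK2, HOXC10, ALX4, GATA6, SOX2, GATA4, APITD1, MGMT and GFAP, and LDHA and CDKN1A for the line difference. The comparison and the gene lists were chosen with earlier results of these data known. Alternatives were DESeq2 1.42.0 size factors and its Wald test, no filter, a replicate block, 8 or 4 libraries alone, a test against a 1.5-fold change, and each library left out in turn. The fit was tested on simulated counts.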

Additional observations from a re-analysis of the deposited data

Results flagged for a closer look

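A test of the difference itself found that DAC changed 4 genes by different amounts with and without EPZ-6438 in IMR5-75, and 1662 genes by different amounts on EPZ-6438 in IMR5-75 and Be(2)-C. With EPZ-6438 minus without it, the difference on the log2 scale was 1.56 for RGS4, 1.29 for NEFM, -4.08 for FOS and -1.64 for ADCYAP1.

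IMR5-75 minus Be(2)-C, the highest differences on the log2 scale were 10.74 for GDF15, 9.46 for RFPL4B, 8.6 for TDRD1 and 8.23 for VTRNA1-3, and the lowest were -9.37 for KRT19, -5.72 for CBLN4 and -5.68 for IGSF11. Among genes named after their values were seen, the difference was 1.76 for CDKN1A, -1.93 for LDHA and -4.43 for PDGFRA. RFPL4B, VTRNA1-3, KRT19, CBLN4 and IGSF11 each have a group without a count, so their fitted differences depend on the prior count of the fit and are not bounds. CBLN4, a cerebellin gene, had 0 and 0 CPM with DAC+EPZ in IMR5-75, against 0.788 and 0.0787 CPM with EPZ, and its difference was not called without EPZ 1, DAC+EPZ 1 or DAC+EPZ 2 in IMR5-75 (adjusted p = 0.349, 0.072 and 0.0882). IGSF11, a cell adhesion gene, had 46.1 and 44.2 CPM with DAC+EPZ in IMR5-75, against 45.9 and 51.3 CPM with EPZ, and 0.445 and 0.524 CPM with DAC+EPZ in Be(2)-C, against 0 and 0 CPM with EPZ.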

How the results depend on the processing

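The count of genes changed by DAC on EPZ-6438 in IMR5-75 stayed within 1.5 times its value with DESeq2 size factors (5954), no filter (6136), the DESeq2 Wald test (5314), the 8 IMR5-75 libraries alone (5827) and the 4 compared libraries alone (6692). Against a 1.5-fold change it was 1863, with 1503 higher and 360 lower. With 1 of the 4 libraries left out it was 3728 to 4822, with 2337 to 2940 higher and 1391 to 1882 lower. The difference with and without EPZ-6438 was called in 84 genes without the filter (47 higher and 37 lower), in 14 by DESeq2 (5 and 9) and in 1 in the 8 IMR5-75 libraries alone (0 and 1), and with 1 library left out in 1 to 10 genes (0 to 3 higher and 1 to 7 lower). The line difference was called in 879 to 2007 genes with 1 library left out (588 to 1115 higher and 291 to 892 lower), with 879 without EPZ 2 and 1105 without DAC+EPZ 2 of IMR5-75, and 883 without DAC+EPZ 1 of Be(2)-C. The causes were not tested.

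Whether replicate numbers pair the samples is not labelled. The correlation of replicate differences between DAC+EPZ and EPZ of IMR5-75 was -0.269, and between -0.379 and 0.369 over all pairs of groups. These values cannot decide it, since a replicate number need not stand for the same batch in each group. With the replicate block, 5752 genes were called (3203 higher and 2549 lower). No called value changed direction in any alternative run. Low counts limit genes near 0, where 1 count in the EPZ group sets a ratio, and 2 libraries a group limit small changes.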

Other observations

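Gene families taken by the start of their symbol gave counts that the lists above do not show. Of 19 CENP genes, which encode centromere proteins, 17 fell and 1 rose with DAC+EPZ over EPZ. Of 43 NDUF genes, subunits and assembly factors of respiratory complex I, 14 fell and 0 rose, and of 143 SNORD genes, small nucleolar RNAs, 21 fell and 0 rose. Ribosomal protein genes were mostly not called, with 1 RPL gene higher and 3 lower of 59, and 4 RPS genes higher and 3 lower of 45. Of 506 ZNF genes, which encode zinc finger proteins, 91 rose and 93 fell. The shares over all genes tested were 20.7% higher and 16.9% lower, and the families were not matched to other genes by level.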
